A study of Homo sapiens with 4 samples.

Results

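The clustered replication-dependent histone genes were described in poly-A RNA-seq data from HCT116, an established line of human colorectal cancer cells. Members were all protein-coding rows of the deposited expression table whose name begins with HIST1H, HIST2H, HIST3H or HIST4H, which gave 50 genes of 34826 in all. They comprise 4 genes for H1, 13 for H2A, 14 for H2B, 7 for H3 and 12 for H4. By cluster, 39 are HIST1 genes on chromosome 6, 7 are HIST2 genes and 3 are HIST3 genes on chromosome 1, and HIST4H4 lies alone on chromosome 12. Values are TPM, which are reads divided by gene length and scaled to the same sum in each library, so that levels of different genes are compared per length.

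The cells carry a degron tag on Ki-67 (named HCT116-Ki-67-mAC-AID in the labels), through which an auxin drives destruction of the tagged protein. The control group is 2 libraries of untreated tagged cells, and the IAA group is 2 libraries of the same cells given 0.5 mM indole acetic acid (IAA) for 24 h, each from 3 dishes grown for 2 days. All 4 libraries therefore share the tag, and no library of cells without it was among the samples, so IAA and the loss of Ki-67 cannot be told apart. Whether the line is a clone is not given in the sources used here.

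Clustered histone genes supply the core histones H2A, H2B, H3 and H4 and the linker histone H1 that package newly copied DNA, and they are transcribed mainly in S phase. Their usual mRNA has no poly-A tail: it ends just after a short stem-loop that is bound by SLBP and cut with the help of the U7 small nuclear ribonucleoprotein. Some of these genes also yield a longer, polyadenylated mRNA that skips or reads past the stem-loop, with HIST1H1C, HIST1H2AC, HIST1H2BD, HIST1H2BK and HIST2H2BE as textbook examples. Since mRNA was selected on oligo-dT beads, the values below describe histone RNA kept by that selection and not the whole histone mRNA pool.

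The stem-loop was looked for in the annotated transcripts (GENCODE 29, GRCh38) because it marks the tailless form. A match was a window of 16 bases that begins with GG, ends with CC, has TT at the start of a loop of 4 bases, and whose last 6 bases are the reverse complement of its first 6. It was found in 23 of the 50 histone genes (46.0%) and in 118 of 17033 other protein-coding genes (0.693%). In 20 histone genes the annotation holds the coding region alone, so no match was possible in the bases after the stop codon, and all 23 matches were among the other 30. Sequences are shown 5′ to 3′ from those transcripts for members of different types, with the stem-loop in capitals and 5 flanking bases on each side:
HIST1H2AC: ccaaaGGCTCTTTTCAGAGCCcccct
HIST3H2A: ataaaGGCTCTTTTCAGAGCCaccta
HIST1H2BD: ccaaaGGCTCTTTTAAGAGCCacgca
HIST1H3H: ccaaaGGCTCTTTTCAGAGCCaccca
HIST1H4J: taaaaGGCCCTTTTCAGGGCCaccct
HIST1H4I: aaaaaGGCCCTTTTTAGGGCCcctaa
The matches fell into 4 sequences. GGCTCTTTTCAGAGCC was in 11 genes of the H2A, H2B and H3 types, and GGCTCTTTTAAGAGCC in 4 of the H2B and H3 types. All 8 matches in H4 genes had a stem beginning GGCCC, with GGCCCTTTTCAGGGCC in 5 and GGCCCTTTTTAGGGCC in 3.

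The annotated models differ in how far they run past the stop codon. In 21 genes a transcript extends over 200 bases past it, in 9 the end lies within 200 bases, and 20 rows are the coding region alone. A poly-A signal hexamer (AATAAA or ATTAAA, transcript strand, last 50 bases) was present in 17 of 50 histone genes (34.0%) against 14925 of 17033 other protein-coding genes (87.6%), and 16 of the 17 were in the group with long 3′ ends. In the 20 rows of the coding region alone the last 50 bases are coding sequence, so no signal past the stop codon could be found. All 17 were among the other 30 genes. HIST1H2AC has transcripts that run 1114 and 1128 bases past the stem-loop, HIST3H2A one that runs 390 bases past it and HIST2H2BE one that runs 1729 bases past it. HIST1H2BD has an unspliced transcript that ends 39 bases past the stem-loop and a transcript of 2 exons and 789 bases that does not contain it. HIST1H2BK (ENSG00000197903.7, GRCh38 chromosome 6, 27146418 to 27146798, minus strand) and HIST1H1C (ENSG00000187837.3, chromosome 6, 26055787 to 26056428, minus strand) are rows of 381 and 642 bases that hold only the coding exon, and for HIST1H2BK the RefSeq gene (H2BC12, GRCh38.p14) spans 8566 bases. HIST1H2BD (ENSG00000158373.8) lies at chromosome 6, 26158146 to 26171349, plus strand, HIST3H2A (ENSG00000181218.5) at chromosome 1, 228456979 to 228457873, minus strand, and HIST1H2AC (ENSG00000180573.9) at chromosome 6, 26124145 to 26139116, plus strand.

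Histone RNA in the poly-A libraries came mostly from 5 genes. HIST1H2BK, HIST1H1C, HIST1H2BD, HIST3H2A and HIST1H2AC were the only members over 10 TPM on average, and they made up 77.1% to 80.5% of the members' summed TPM in each library. Their share of reads, which are not divided by row length, was smaller. They held 1950 of 2980 and 2794 of 4135 reads untreated, and 2118 of 3155 and 2402 of 3425 with IAA. HIST1H1C (642 bases) had 2140 reads over the 4 libraries and HIST1H2BK (381 bases) 2009. A further 24 genes lay between 1 and 10 TPM, 16 were detected at 1 TPM or less, and 5 had no read in any library. The median member stood at 1.23 TPM. The libraries held 38733981 to 49448043 reads, of which 2980 to 4135 fell on the 50 genes, and 17 genes had at least 100 reads over the 4 libraries together.

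**Figure D1:**
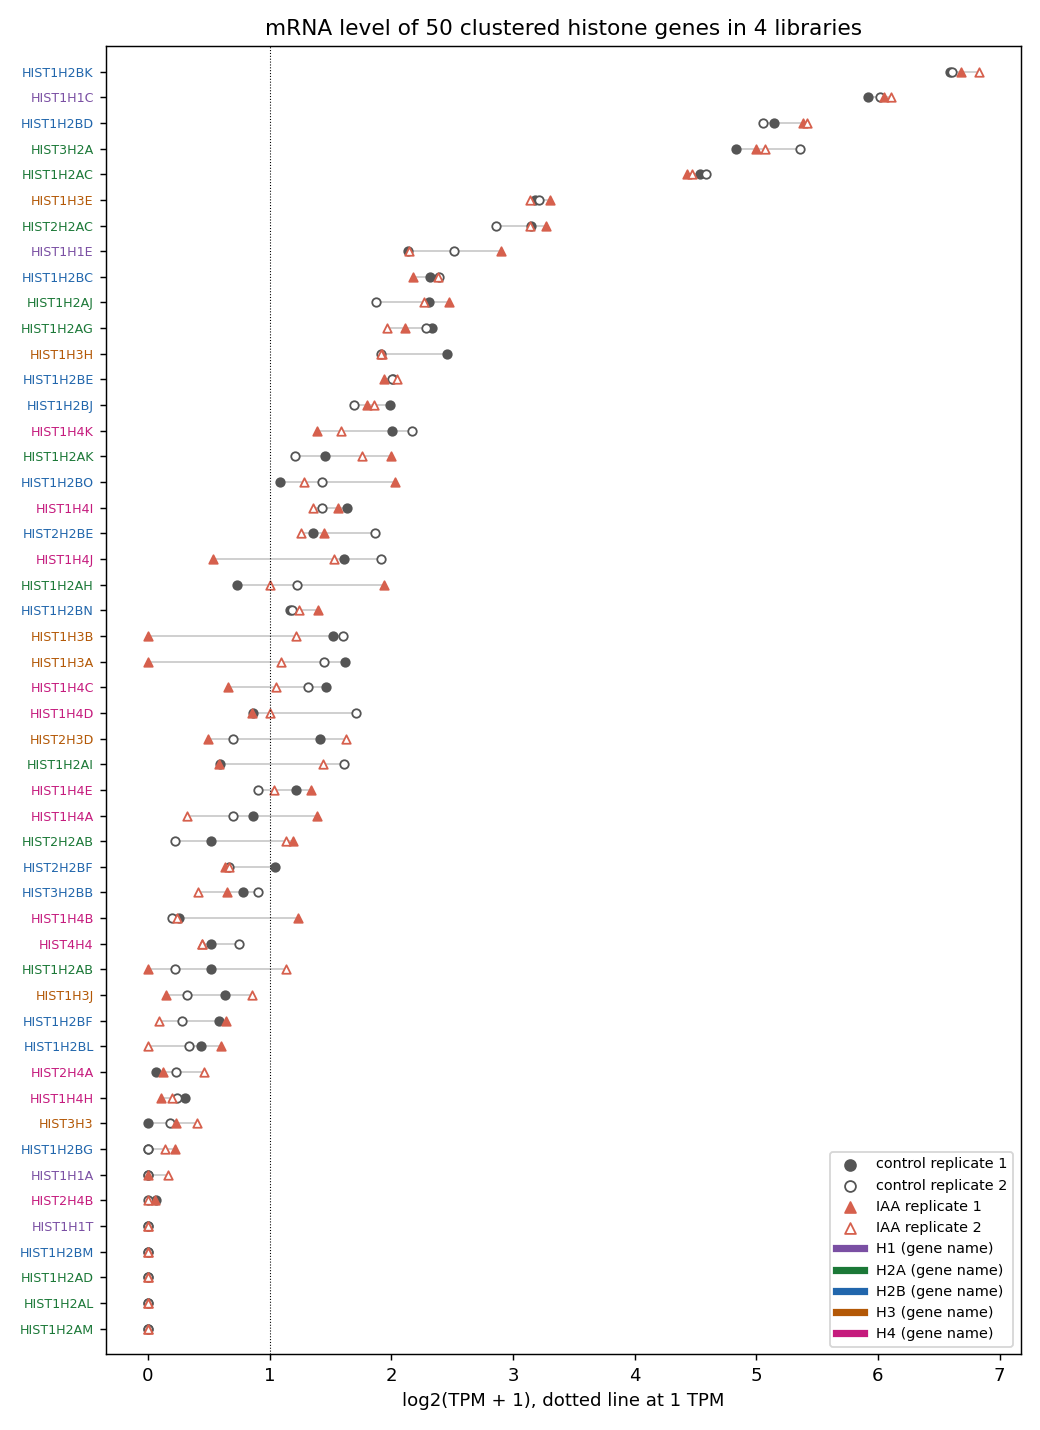
Level of each of the 50 histone genes as log2(TPM + 1) in the 4 libraries, sorted by mean. Circles are controls, triangles are IAA libraries, filled symbols are replicate 1 and open symbols replicate 2, gene names are coloured by histone type, and the dotted line marks 1 TPM. HIST1H2BK is at the top at 95.3 to 113 TPM, 5 genes stand apart above 10 TPM, and 5 genes are at 0 in every library.

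HIST1H2BK, an H2B gene, had the highest level, with 95.3 and 96.8 TPM untreated (replicates 1 and 2, the order kept below) and 102 and 113 TPM with IAA. HIST1H1C, which encodes the linker histone H1.2, followed with 59.5 and 63.8 TPM untreated and 65.4 and 67.8 TPM with IAA. HIST1H2BD had 34.5 and 32.3 TPM untreated and 40.8 and 41.6 TPM with IAA. In each of these 3 genes both IAA libraries lay above both controls. HIST3H2A, the H2A gene of the small HIST3 cluster, had 27.4 and 40.0 TPM untreated and 31.0 and 32.7 TPM with IAA, which fall between the controls. HIST1H2AC had 22.3 and 23.0 TPM untreated and 20.5 and 21.2 TPM with IAA, both below both controls. Such separation was common among the 17896 genes that reached 1 TPM in 2 or more libraries. Both IAA libraries lay above both controls in 11.8% of them and below both in 17.7%.

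In the order of levels, neighbours were separated in all libraries at 4 of 49 steps, those after HIST1H2BK, HIST1H1C, HIST3H2A and HIST1H2AC. The ranges of HIST1H2BD and HIST3H2A overlapped, and from HIST1H3E downward every gene's range overlapped that of the next. HIST1H3E, the highest H3 gene, had 8.08 and 8.28 TPM untreated and 8.86 and 7.83 TPM with IAA, and HIST2H2AC had 7.87 and 6.28 TPM and 8.63 and 7.80 TPM. Below them came HIST1H1E with 3.39 and 4.70 TPM untreated and 6.47 and 3.41 TPM with IAA, and HIST1H2BC with 3.99 and 4.25 TPM and 3.53 and 4.21 TPM. HIST1H1E was highest in IAA replicate 1, while the groups of the other 3 genes also overlapped.

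Of the 5 textbook examples of polyadenylated histone transcripts, 4 were among the 5 highest members. The members and lists were chosen with earlier results of these data known, so this overlap is a description and was not tested. The exception was HIST2H2BE, at 1.55 and 2.64 TPM untreated and 1.73 and 1.39 TPM with IAA. Its row is long (2194 bases) and held 214 reads over the 4 libraries. Genes with an annotated hexamer had a median of 2.58 TPM (17 genes) and those without it a median of 0.83 TPM (33 genes). The 33 include the 20 rows of the coding region alone, where no signal past the stop codon could be found. Genes with a long annotated 3′ end had a median of 1.83 TPM (21 genes), rows of the coding region alone 1.23 TPM (20 genes) and the rest 0.466 TPM (9 genes). These medians describe the members only and were not tested, and 2 of the 5 highest genes are rows of the coding region alone.

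Among the members, H3 and H4 genes summed to the least, and every H4 gene and all H3 genes other than HIST1H3E had a mean under 5 TPM. The highest H4 gene by mean TPM, HIST1H4K, had 3.01 and 3.51 TPM untreated and 1.62 and 2.00 TPM with IAA, on 11, 17, 6 and 8 reads. HIST1H4K shares all of its 100-base windows with HIST1H4J, so the split of reads between these genes is uncertain. HIST1H4I had 2.11 and 1.69 TPM untreated and 1.95 and 1.57 TPM with IAA. Its row is longer (1294 bases against 312 for HIST1H4K), and it had 122 reads over the 4 libraries against 42. HIST1H3H had 4.48 and 2.76 TPM untreated and 2.79 and 2.77 TPM with IAA, where control replicate 1 stands above the other libraries.

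The testis genes among the members were near or at 0. HIST1H1T, the testis linker histone, had no read in any library, which allows at most 0.269 to 0.356 TPM per library (3 reads, counting error only). HIST3H3, the testis H3 gene, had 0, 1, 1 and 2 reads. HIST1H2BM, HIST1H2AD, HIST1H2AL and HIST1H2AM also had no read, which allows at most 0.492 to 0.671 TPM per library. The last 3 overlap exons of another annotated gene. Across the members 11 genes overlap an exon of another gene and 15 share over 10% of their 100-base windows with a transcript of another gene, 18 in all. How shared reads were counted is not given in the sources used here. HIST1H2BK shares 28.4% of its windows with H2BFS, whose rows hold at most 1 read in any library.

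By type, H2B genes held 44.9% to 49.5% of the members' summed TPM in each library, H2A genes 22.1% to 24.8%, H1 genes 20.3% to 21.8%, H3 genes 3.73% to 6.03% and H4 genes 2.88% to 4.42%. All 50 genes together summed to 310.2 and 326 TPM untreated and to 331 and 343 TPM with IAA, or 318 ± 10.9 and 337 ± 8.88 TPM (SD, n = 2). Both IAA sums lay above both controls in TPM, by a ratio of means of 1.06. On other scales the groups were not separated. They overlapped after median-of-ratios scaling (299.6 and 334 TPM against 324 and 353 TPM), after TMM scaling (299 and 336 TPM against 322 and 354 TPM) and as RPM, reads scaled by library size alone (76.5 and 83.6 against 81.5 and 83.7). They also overlapped without the 5 highest genes, at 71.2 and 69.8 TPM against 71.1 and 67.0 TPM. With 2 libraries a group, no exact permutation test (two-sided) can reach a p under 0.333, and the sums were left without one. The H2B sums were 146 TPM in both controls and 160 and 170 TPM in the IAA libraries, and the 12 H2B genes other than HIST1H2BK and HIST1H2BD summed to 16.5 and 17.1 TPM untreated and 17.7 and 15.2 TPM with IAA. H4 sums lay the other way, at 12.9 and 14.4 TPM untreated and 10.5 and 9.88 TPM with IAA. They rest on 112 and 150 reads in the controls and 100 in each IAA library. In RPM these were 2.88 (95% exact Poisson interval 2.37 to 3.46) and 3.03 (2.57 to 3.56) untreated, and 2.58 (2.10 to 3.14) and 2.44 (1.99 to 2.97) with IAA. The H2B and H4 sums were separated in the same directions under both scalings and in RPM. The H4 separation rested on HIST1H4K (11, 17, 6 and 8 reads, controls first) and its near copy HIST1H4J (9, 16, 2 and 9 reads). Without these genes the H4 sums of the groups overlapped, in TPM and in RPM. In bulk samples, fewer cells in S phase and less histone RNA per cell cannot be told apart.

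**Figure D2:**
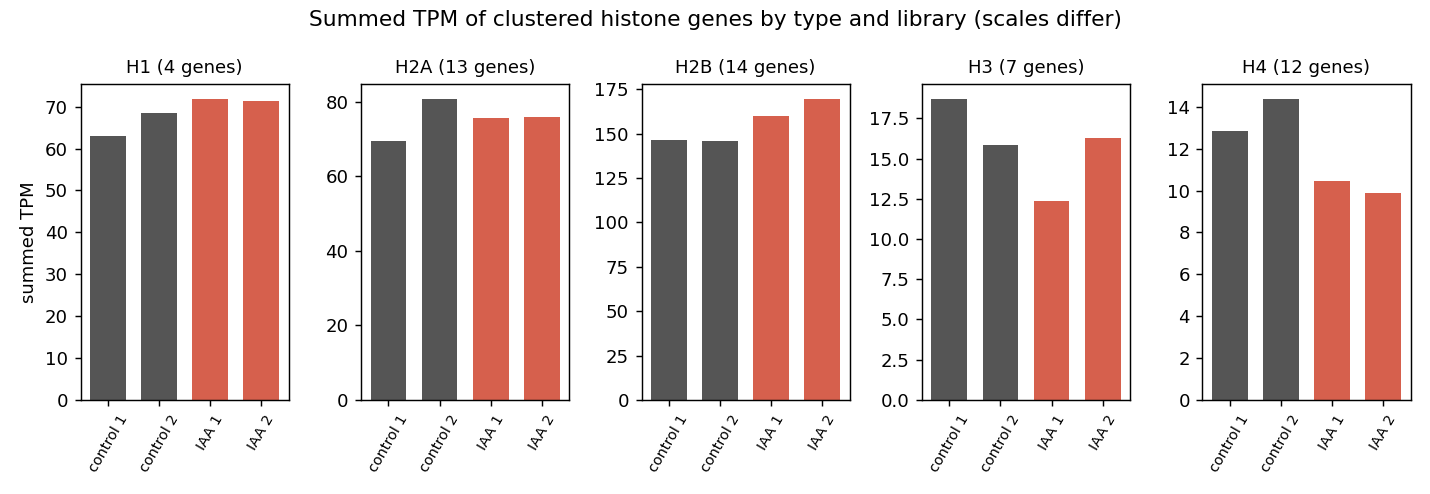
Summed TPM of the genes of each histone type in each library, with controls in grey and IAA libraries in red; each panel starts at 0 and has its own scale. H2B is the largest type, at 146 TPM in the controls, and H4 the smallest, at 9.88 to 14.4 TPM.

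RNA that normally lacks a poly-A tail was also present. RN7SL2, a signal recognition particle RNA gene, had 17025 and 26642 TPM untreated and 18915 and 12386 TPM with IAA. It was highest in control replicate 2 and lowest in IAA replicate 2, whereas the histone sum was lowest in control replicate 1. Of the 15 genes of tailless RNAs found in the table, 4 reached 1 TPM in at least 2 libraries, with 3 positive fold changes and a median of 0.17 on the log2 scale. The positive genes include RNU5A-1, on 0, 2, 0 and 2 reads, and RNU5D-1, on 1, 2, 6 and 0 reads, so the median rests on few reads. RN7SL2 had a log2 fold change of -0.48. RNU7-1, the U7 RNA gene, had no read. SNORD3A, the U3 RNA gene, had 3.17 and 2.67 TPM untreated and 4.82 and 3.01 TPM with IAA. The part of carried-over tailless RNA in the histone values was not tested.

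H2A and H2B genes often lie head to head, transcribed away from each other from the DNA between them. The members included 9 such pairs, with 218 to 330 bases between the annotated genes, and in 6 of the 9 the partners' ranges over the 4 libraries did not overlap when a gene at 0 was set to the limit that 0 reads allow. In 3 pairs a partner had no read, and the limit covers counting error only. One such partner, HIST1H2AM beside HIST1H2BO, shares 84.0% of its 100-base windows with HIST1H3J. How shared reads were counted is not known, so the separation of that pair is uncertain. Among the 6 pairs with both genes detected, the widest gap was between HIST1H2BK at a mean of 102 TPM and HIST1H2AH at 1.46 TPM, a ratio of 69.7. HIST1H2AH had 0.661 and 1.33 TPM untreated and 2.83 and 1.01 TPM with IAA, on 3 to 13 reads. HIST3H2A and HIST3H2BB stood at means of 32.8 and 0.623 TPM, a ratio of 52.6. HIST1H2AC and HIST1H2BC stood at 21.8 and 3.99 TPM. The partners HIST1H2BJ and HIST1H2AG had similar means, 2.58 and 3.54 TPM, with overlapping ranges. The higher partner was the H2B gene in some pairs and the H2A gene in others. These levels are per length of the annotated row, and the rows of some partners differ in length. HIST2H2AC (390 bases) was higher than HIST2H2BE (2194 bases) in TPM, but had 153 reads over the 4 libraries against 214. HIST3H2A (895 bases) had 1549 reads and HIST3H2BB (2364 bases) 78. HIST1H2BK and HIST1H2AH, with rows of 381 and 387 bases, had 2009 and 29 reads.

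**Figure D3:**
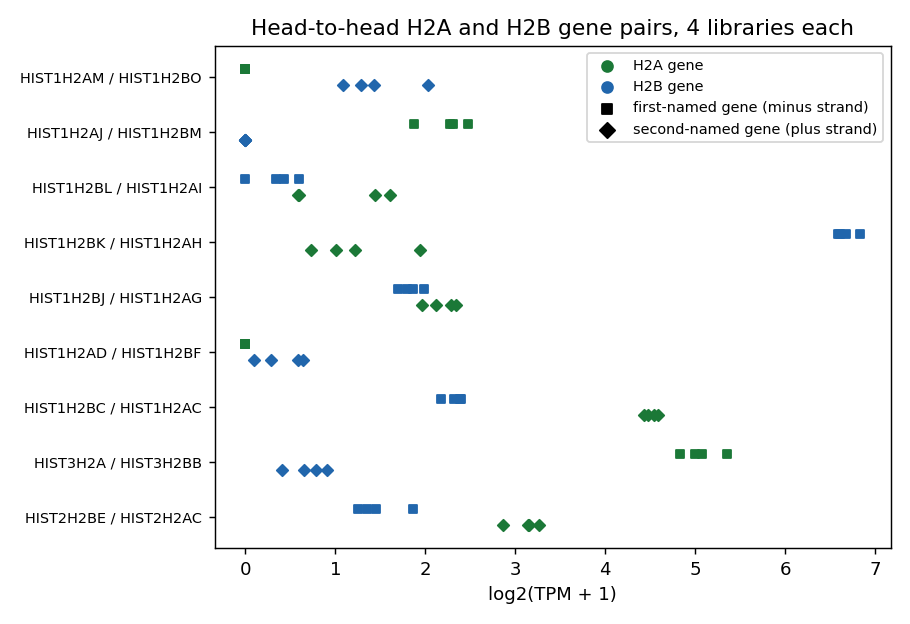
Levels of the partners of 9 head-to-head gene pairs as log2(TPM + 1), with 4 libraries as points for each gene; green is H2A, blue is H2B, squares are the first-named gene and diamonds the second-named. HIST1H2BK and HIST3H2A stand far above their partners, HIST1H2AH at a mean of 1.46 TPM and HIST3H2BB at 0.623 TPM.

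DNA between HIST1H2BK and HIST1H2AH is shown because the pair had the widest gap in level among those with both genes detected. It is the RefSeq promoter window of HIST1H2BK, 250 bases before to 50 after its start (GRCh38.p14, chr6:27146809-27147108, minus strand). Capitals mark CCAAT and TATAA on either strand, where overlapping matches are counted separately:
HIST1H2BK promoter: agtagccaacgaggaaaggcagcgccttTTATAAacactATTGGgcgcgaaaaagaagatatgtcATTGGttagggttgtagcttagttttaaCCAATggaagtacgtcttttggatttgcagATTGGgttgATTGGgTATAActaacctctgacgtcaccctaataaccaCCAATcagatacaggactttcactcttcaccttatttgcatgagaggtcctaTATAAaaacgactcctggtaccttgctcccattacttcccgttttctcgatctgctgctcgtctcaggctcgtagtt
It holds 6 matches of CCAAT and 4 of TATAA. Over the 43 histone genes with a promoter in the RefSeq table, CCAAT was present in 34 (79.1%) and TATAA in 38 (88.4%). In windows of the same length from 27262 other genes the shares were 39.7% and 24.1%. A match of these letters is a description and not a bound site.

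None of the histone genes differed between IAA and control at an adjusted p under 0.05. Testing took in the 17896 genes that reached 1 TPM in 2 or more libraries, and limma on log2(TPM + 1) with Benjamini-Hochberg adjustment called 0 of the 29 measured histone genes higher and 0 lower, against 0% of all genes tested in each direction. By limma voom on reads recovered from the TPM values the count was again 0 and 0, with 0.00559% of all genes called higher and 0% lower. At an unadjusted p under 0.05, limma had 3 histone genes with higher values (10.3%, against 1.54% of all genes) and 1 with lower values (3.45%, against 2.61%), and voom had 1 and 2 (against 1.70% and 2.30%). The 3 higher genes of limma include HIST2H2AB, which passed the filter only through its IAA values, so its direction was built into its inclusion. The 21 members outside the 29 measured were too low to be tested, so none of these counts speaks for all 50.

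Fold changes were spread around 0, with 14 positive and 15 negative and a median of -0.01 on the log2 scale, beside -0.02 over all genes tested. The groups were fully separated with higher IAA values in 6 members (20.7%, against 11.8% of all genes tested) and with lower IAA values in 7 (24.1%, against 17.7%). The 6 include HIST2H2AB, which passed the filter only through its IAA values and is also among the H2A genes counted next. By type, 2 H1 genes were measured and both had positive fold changes, as did 5 of 9 H2A, 4 of 8 H2B, 2 of 5 H3 and 1 of 5 H4 genes. Medians were 0.15 for H1, 0.20 for H2A, 0.07 for H2B, -0.26 for H3 and -0.53 for H4, and single libraries moved them. Without control replicate 1 the H3 median was 0.0077 and the H1 median 0.04. Without IAA replicate 1 the H1 median was -0.02 and the H4 median -0.24, and without IAA replicate 2 the H1 and H3 medians were 0.33 and -0.56.

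**Figure D4:**
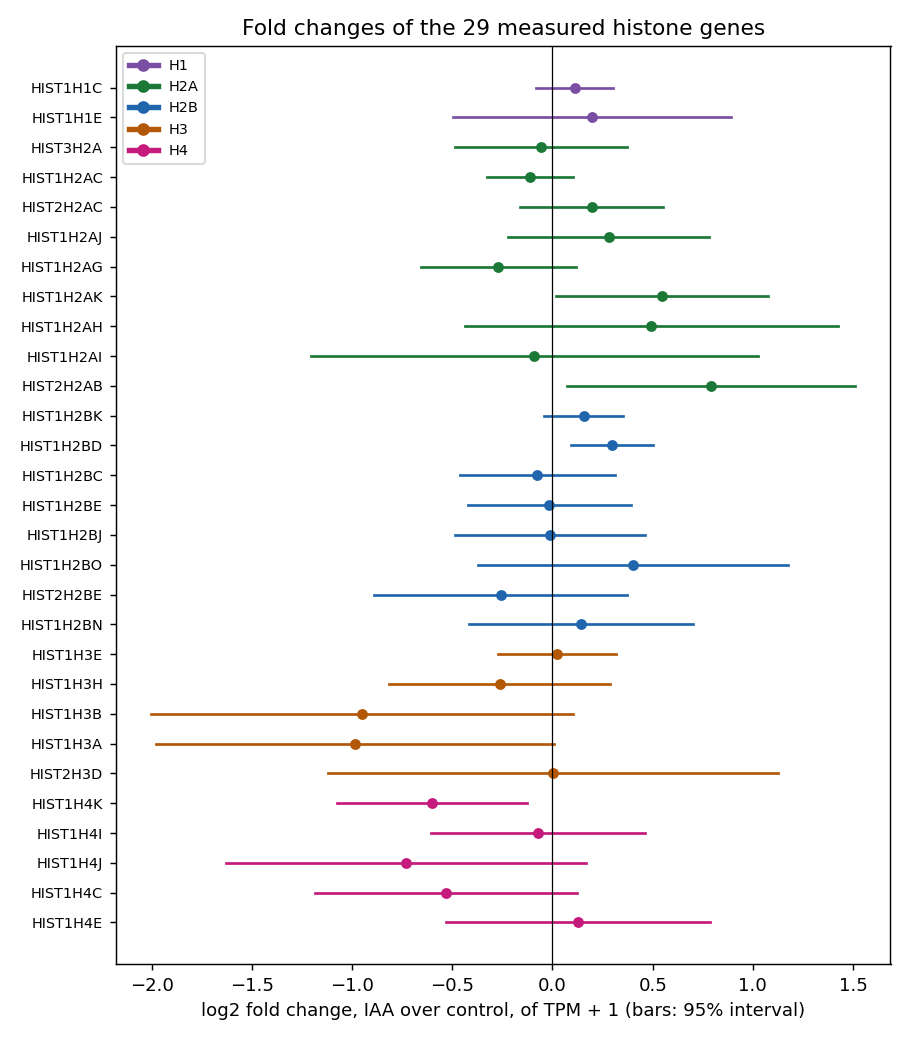
Fold change of each of the 29 measured histone genes on the log2 scale (IAA over control, TPM + 1), with 95% intervals from limma and genes grouped by type. Most intervals include 0, HIST1H2BD sits at 0.30 with a narrow interval and HIST1H3A at -0.99 with a wide one, and 0 genes passed after adjustment.

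HIST1H2BD had the smallest p of the members. Its mean was 33.4 ± 1.55 TPM untreated and 41.2 ± 0.607 TPM with IAA (SD, n = 2), so that log2 IAA over control was 0.30 ± 0.08 (SE; 95% interval 0.09 to 0.50; limma adjusted p = 0.902). The difference exceeds the spread within either group, and over all alternatives the fold change lay between 0.25 and 0.34. HIST1H2BK had 96.1 ± 1.01 TPM untreated and 107 ± 7.90 TPM with IAA (SD, n = 2), which is 0.16 as log2 fold change (95% interval -0.04 to 0.35). HIST1H1C had 61.6 ± 3.01 and 66.6 ± 1.67 TPM, a log2 fold change of 0.11 (95% interval -0.08 to 0.30). With each library left out, HIST1H2BK lay between 0.08 and 0.23 and HIST1H1C between 0.06 and 0.16. HIST1H2AC had a log2 fold change of -0.11 with an interval from -0.33 to 0.10, and HIST3H2A of -0.06 with an interval from -0.48 to 0.37, which turned to 0.21 without control replicate 2.

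The largest fold changes were those of genes with few reads. HIST2H2AB had 2 and 1 reads untreated and 6 in each IAA library, or 0.434 and 0.164 TPM against 1.29 and 1.19 TPM, a log2 fold change of 0.79 (limma adjusted p = 0.999). It passed the filter only through its IAA values, so a higher IAA level was built into its inclusion. HIST1H2AK had 8 reads in each control and 14 and 12 in the IAA libraries, a log2 fold change of 0.55. All of its 100-base windows are also found in HIST1H2BN, which is transcribed from the other strand, and without known strand use the reads of these genes cannot be told apart.

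Among members with lower IAA values, the smallest p-values were those of HIST1H4K, HIST1H3A and HIST1H3B. HIST1H3A had 10 and 11 reads untreated and 0 and 6 with IAA, and HIST1H3B had 9 and 13 and 0 and 7. Both are H3 genes of the HIST1 cluster, and their log2 fold changes were -0.99 and -0.95. These depend on the pseudocount, and at 0.1 they were -2.50 and -2.44. The IAA libraries differed from each other, and without IAA replicate 1 the fold changes were -0.44 and -0.34. Genes above 0 numbered 26245 in IAA replicate 1 and 27107 to 28153 in the other libraries, and the part of this in the histone values was not tested. On protein-coding rows alone, HIST1H3A, HIST1H3B, HIST1H4J and HIST1H4K passed as lower (limma adjusted p = 4.87e-05, 8.15e-05, 0.00709 and 0.0385). HIST2H2AB passed there as higher (limma adjusted p = 0.00931). In that fit 0.201% of genes were called lower and 0.0963% higher. Its prior degrees of freedom were infinite, so every gene got the variance of the trend instead of its own spread. Without IAA replicate 2, HIST1H3A, HIST1H3B and HIST1H4J passed as lower (limma adjusted p = 0.00556, 0.00430 and 0.0148), where 2.37% of all genes were called lower and 2.98% higher. Without IAA replicate 1 no histone gene passed, where 1.23% and 0.402% of all genes did. HIST1H4K had a log2 fold change of -0.60 (95% interval -1.07 to -0.13), and its near copy HIST1H4J had 9, 16, 2 and 9 reads and a log2 fold change of -0.73 (limma adjusted p = 0.999 for both), which was -0.24 without IAA replicate 1.

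Read support separated the members. Among the 16 measured genes with at least 100 reads over the 4 libraries, log2 fold changes lay between -0.27 and 0.30 and none exceeded 0.5 in size, while among the 13 with fewer reads they lay between -0.99 and 0.79 and 7 exceeded it. The median width of the 95% interval was 0.79 in the better covered genes and 1.54 in the others.

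**Figure D5:**
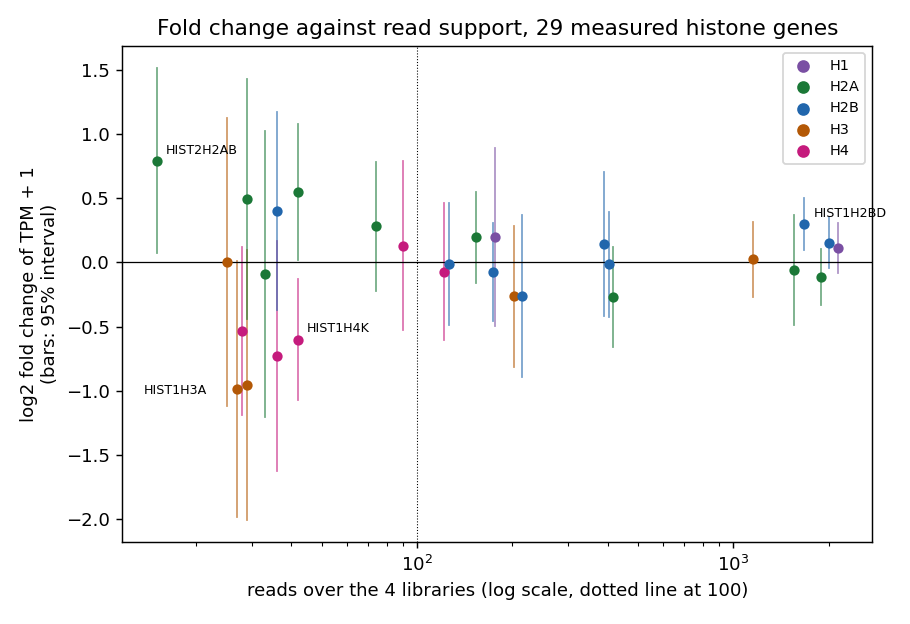
Log2 fold change (TPM + 1, IAA over control) of the 29 measured histone genes against their reads summed over 4 libraries (log axis), coloured by type, with 95% intervals and a dotted line at 100 reads. To the right of the line the fold changes stay between -0.27 and 0.30, and the values beyond 0.5 in size are all to the left.

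The factors that make and process histone mRNA were measured more precisely, and 0 of 37 were called in either direction (limma adjusted p, 0% of all genes called). Their median on the log2 scale was -0.04, with 15 positive and 22 negative values from -0.16 to 0.21. SLBP, the protein that binds the stem-loop, had 152 and 149 TPM untreated and 142 and 147 TPM with IAA, a log2 fold change of -0.06 (95% interval -0.23 to 0.11). NPAT, the coactivator of histone gene transcription, had 13.1 and 11.05 TPM and 14.0 and 11.8 TPM. CASP8AP2 (FLASH), which joins NPAT in the histone locus body, had 15.3 and 12.3 TPM and 13.8 and 12.4 TPM. In NPAT and CASP8AP2 the groups overlapped.

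LSM10 and LSM11, the proteins specific to the U7 particle, had 42.0 and 41.9 TPM against 34.5 and 44.5 TPM and 11.9 and 11.2 TPM against 12.005 and 9.90 TPM. ZNF473, a zinc finger protein of the processing complex, had 11.3 and 10.1 TPM untreated and 10.1 and 8.92 TPM with IAA. ERI1, an exonuclease that acts on the stem-loop end of histone mRNA, had 65.7 and 63.3 TPM untreated and 78.1 and 68.7 TPM with IAA, a log2 fold change of 0.18 (95% interval -0.04 to 0.40; 0.09 to 0.27 with each library left out). CCNE2, an E-type cyclin of the kinase that acts on NPAT, had 7.25 and 6.55 TPM and 8.92 and 7.36 TPM. The lowest p-values on the other side were those of SNRPF, an Sm ring protein, with 82.0 and 84.1 TPM and 69.9 and 78.8 TPM, and of SRRT (ARS2), a cap-complex partner, with 105 and 97.9 TPM and 91.0 and 94.2 TPM.

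Histone chaperones and assembly factors, which carry new histones to DNA, had a median log2 fold change of -0.05, with 4 of 27 measured genes positive, 23 negative and 0 called. HIRA, the chaperone of the variant H3.3, had 8.31 and 7.11 TPM untreated and 5.82 and 6.68 TPM with IAA, and TONSL, which reads new H4 at forks, had 37.7 and 36.7 TPM and 32.6 and 34.2 TPM. NAP1L1 and NAP1L4, chaperones of H2A and H2B, had log2 fold changes of 0.05 and 0.04 with overlapping groups. The S phase list had a median of -0.06, with 7 of 30 positive, 23 negative and 0 called. Among its genes RRM2, a ribonucleotide reductase subunit, had 81.4 and 86.8 TPM against 94.8 and 91.7 TPM, UHRF1, which binds hemimethylated DNA, 67.2 and 58.8 TPM against 52.8 and 53.6 TPM, and CDT1, a replication licensing factor, 116 and 115 TPM against 92.05 and 108 TPM. Over all genes tested 55.5% of fold changes were negative, and the part of that shift in these lists was not tested.

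Replication-independent histone variants, whose mRNAs are mostly polyadenylated, summed to 4663 to 4881 TPM over 12 genes, against 310.2 to 343 TPM for the 50 clustered genes. Of 11 measured, 2 had positive and 9 negative fold changes, with a median of -0.04 and 0 called. H1F0, a linker histone variant, had 2072 and 1963 TPM untreated and 2102 and 2010 TPM with IAA, and H2AFX, the variant phosphorylated at DNA breaks, had 289 and 293 TPM against 270.4 and 346 TPM. H3F3A, an H3.3 gene, had 226 and 225 TPM against 197 and 223 TPM, and H2AFV, an H2A.Z gene, had 121 and 113 TPM against 109 and 113 TPM.

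MKI67, the tagged gene, had 198 and 151 TPM untreated and 174 and 149 TPM with IAA, and the degron acts on protein, so this does not check removal of Ki-67. Of the epithelial markers, EPCAM stood at 466 to 480 TPM and KRT8 at 1018 to 1075 TPM, while VIL1, a brush border protein, was under 1 TPM. Blood and endothelial markers summed to at most 0.624 and 0.499 TPM, fibroblast markers to 13.3 to 14.8 TPM, nearly all of it COL1A1, and the testis germ cell markers in the table, DDX4 and SYCP3, to at most 0.616 TPM.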

How the data were processed

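Poly-A mRNA of 4 samples (2 control, 2 IAA) was sequenced as paired reads of 150 nt, per the labels' protocols. The authors deposited TPM values per gene, each library summing to 1000000. Builds hg38 and GRCh38.p12 are listed by the submitters' processing notes, with DESeq2 1.20.0 and featureCounts 1.5.2 but no roles. Aligner and strand use: not given in the sources used here. Each of 34826 gene IDs was found in GENCODE 29, and coordinates are from that release. TPM times length came out as whole reads in 100% of genes (tolerance 1e-06).

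Genes reaching 1 TPM in 2 or more libraries were fitted with limma 3.58.1 in R 4.3.3 (trend) on log2(TPM + 1), with two-sided p-values adjusted by Benjamini-Hochberg over 17896 genes and a threshold of 0.05. The fit has 2 residual degrees of freedom. This scale understates the change of low genes. Other scaling, pseudocounts, filters, a replicate block, voom on the reads and leaving out each library were tried as alternatives. The code was tested on simulated data. The labels call the replicates biological but name no separate cultures beyond their dishes, so p-values measure the spread between these samples. No pair of libraries agreed within sampling noise (chi-square per gene 5.75 to 15.8). The lowest value was that of control replicate 2 with IAA replicate 2, below the 8.12 of the 2 controls. The highest was that of the 2 IAA replicates, so by this measure the libraries did not group by treatment.

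The members and lists were chosen with earlier results of these data known. Named genes were the 3 highest of each type, the 3 smallest p-values in each direction, the textbook polyadenylated and testis genes, 7 regulators, MKI67 and the 2 smallest p-values in each direction of each list. Others were named after their values were seen. HIST1H2AA and HIST1H2BA were not analysed here. Read intervals (95% exact Poisson) and limits at 0 cover counting error only.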

Additional observations from a re-analysis of the deposited data

How the results depend on the processing

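Other scaling, other pseudocounts, other low-value filters, voom and a replicate block each gave 0 called histone genes, and the count changed with 2 settings. On protein-coding rows only there were 1 higher (HIST2H2AB) and 4 lower histone genes (HIST1H3A, HIST1H3B, HIST1H4J and HIST1H4K), among 12 higher and 25 lower genes in all. There limma's prior degrees of freedom were infinite, and every gene got the variance of the trend. HIST2H2AB had passed the filter only through its IAA values. Without IAA replicate 2 there were 3 lower (HIST1H3A, HIST1H3B and HIST1H4J), where the spread comes from the controls alone and is taken to hold for IAA. Leaving out each library in turn gave 0 to 3 lower and 0 to 0 higher histone genes, and 0 to 534 higher and 0 to 424 lower genes in all, with 72 and 221 without IAA replicate 1. Voom called 1 higher gene. The replicate block called 0 genes in each direction. Deviations of same-numbered libraries correlated at -0.07, and with 2 libraries a group the crossed correlation is the mirror image, 0.07. These values cannot show whether equal numbers share a day or a batch, and the labels do not say.

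The median fold change of the histone genes lay between -0.04 and 0.02 over all alternatives and its sign varied. The log2 ratio of the histone sums, 0.08, lay between 0.05 and 0.12 with a library left out and at 0.09 to 0.10 under other scaling. Of 29 measured histone genes, 18 kept their sign with each library left out. Among named genes the sign turned at least once for these, with the range given: HIST1H1E (-0.18 to 0.58), HIST3H2A (-0.32 to 0.21), HIST1H2BC (-0.18 to 0.025), HIST1H3E (-0.056 to 0.10), HIST1H3H (-0.54 to 0.0077), HIST1H4I (-0.18 to 0.031), NPAT (-0.028 to 0.20), CASP8AP2 (-0.22 to 0.083), LSM10 (-0.28 to 0.082), LSM11 (-0.20 to 0.051), NAP1L1 (-0.00040 to 0.10), H2AFX (-0.11 to 0.25), H1F0 (-0.011 to 0.066) and MKI67 (-0.29 to 0.089). Of the other 26 named genes with a value, 19 kept their sign but moved by over 1.5 times with a library left out. The type medians with a library left out were added after seeing the data, and they ranged from -0.023 to 0.33 for H1 and from -0.56 to 0.0077 for H3, the types whose median turned sign. Under 100 reads stood behind 5 of 9 measured H2A, 1 of 8 H2B, 3 of 5 H3 and 4 of 5 H4 genes.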

Other observations

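Histone rows annotated as pseudogenes, 8 in all, were not members. HIST2H2BD (a transcribed pseudogene) had 9.49 and 8.82 TPM untreated and 9.58 and 9.67 TPM with IAA on 402 to 494 reads, and HIST2H2BC 4.57 and 4.03 TPM and 4.60 and 4.63 TPM on 345 to 403 reads. Both stood above most protein-coding members per length, and their log2 fold changes were 0.07 and 0.08 with 95% intervals from -0.20 to 0.33 and from -0.27 to 0.44. The other 6 pseudogene rows had at most 7 reads in any library.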
